A study of Homo sapiens with 5 samples.

Results

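Hyaluronan synthesis and the ovulatory matrix were followed through 10 genes, HAS2, HAS3, PTX3, TNFAIP6, VCAN, CD44, ADAMTS1, ADAMTS4, ADAMTS5 and ADAMTS9. The genes were taken by name from the deposited count table, in which all 10 were found among 35453 gene names, and their 80 transcript rows were summed per gene. The measurements come from KGN cells, an established line grown from a human granulosa tumour. Granulosa cells are the somatic cells that surround the oocyte in the ovarian follicle. The series asks which signalling pathways gonadotropins use in such cells, and RNA was sequenced after 24 h with one of 4 agents or none.

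The treated groups received follicle-stimulating hormone (FSH, 100 ng/mL), forskolin (FSK, which raises cAMP and so switches on protein kinase A), SC79 (4 µg/mL, an activator of AKT, also called protein kinase B) or the phorbol ester PMA (which switches on protein kinase C). The control is titled as having had no treatment, but the protocol gives it ethanol, the solvent of the agents. All 5 groups shared charcoal-stripped medium and 100 nmol/L androstenedione, the substrate from which aromatase makes oestrogen. The labels give 10 mmol/L FSK and 0.1 mmol/L PMA, whereas a symbol in the protocol stands for micromoles per litre, so the doses of these 2 agents are uncertain. Each group has 1 library, pooled from 3 cultures of separate weeks with 90 ng RNA from each, so no difference below has a replicate check and no p-value was computed. In pooled RNA from whole cultures, fewer cells that express a gene and less of its RNA per cell cannot be told apart.

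Before ovulation, the cumulus granulosa cells around the oocyte lay down an expanding matrix of hyaluronan, a long sugar polymer spun out through the plasma membrane by hyaluronan synthases, chiefly HAS2. TNFAIP6 (TSG-6) transfers heavy chains of inter-alpha-trypsin inhibitor onto the polymer and PTX3 (pentraxin 3) holds these chains together. Versican (VCAN) is a chondroitin sulphate proteoglycan that binds hyaluronan, CD44 is the main cell-surface hyaluronan receptor, and proteases of the ADAMTS family cut versican, ADAMTS1 being the one best known from the ovulating follicle. In the mouse, loss of Ptx3 or Tnfaip6 makes the cumulus matrix unstable and lowers female fertility.

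Much of the RNA of these genes came from VCAN and CD44, whose transcripts differ by long skipped stretches, so the exon junctions that tell the forms apart are shown. VCAN lies at chr5:83471465-83582303 on the plus strand of GRCh38 (GENCODE release 29). VCAN-201 encodes V0, with both long exons that carry chondroitin sulphate chains, and VCAN-203 encodes V1, which skips the first of them. CD44 lies at chr11:35138870-35232402 on the plus strand, and CD44-201 encodes the standard form without the variable exons. Each line gives the last 15 bases of the upstream exon in lower case and the first 15 bases of the downstream exon in capitals, 5′ to 3′, from the GENCODE transcripts.
VCAN-201 junction into the first long exon: cctactgctttaaacCTAAAGAGGCTACAA
VCAN-203 junction over the first long exon: cctactgctttaaacGTCGAATGAGTGATT
CD44-201 junction over the variable region: gaatccctgctaccaGAGACCAAGACACAT
The first VCAN junction is present in 3 of 12 annotated VCAN transcripts in the table and the second in another 3 of 12, whereas the CD44 junction is present in 3 of 39 CD44 transcripts. Both VCAN junctions leave the same upstream exon, whose last base is chr5 position 83512396.

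Sequence upstream of the start was available for 5 of the 10 genes (HAS3, PTX3, TNFAIP6, VCAN and CD44) in RefSeq's promoter table on GRCh38.p14. The 250 bases before each start were searched on both strands for 6 motifs: AP-1 (TGANTCA), the full cAMP response element (TGACGTCA), the core of that element (TGACG), NF-kB, the GC box (GGGCGG) and the TATA box (TATAAA). The core letters also lie inside every full element. PTX3 is shown because it was at least 2-fold lower in both the FSK and the PMA library. Its 189 bases up to the GENCODE start are given (chr3:157436600-157436788, plus strand), and none of the 6 patterns matched in them. Other spellings of these sites were not searched, among them NF-kB sites that end in other letters than TTCC. TNFAIP6 is shown because its window (chr2:151357342-151357591, plus strand) was the only one of the 5 with an AP-1 match, set in capitals and beginning 129 bases before the start. These 2 were chosen after their values were seen.
PTX3 promoter: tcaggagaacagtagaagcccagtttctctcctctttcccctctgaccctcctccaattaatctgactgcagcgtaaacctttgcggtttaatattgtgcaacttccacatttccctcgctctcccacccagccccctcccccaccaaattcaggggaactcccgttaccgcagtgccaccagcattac
TNFAIP6 promoter: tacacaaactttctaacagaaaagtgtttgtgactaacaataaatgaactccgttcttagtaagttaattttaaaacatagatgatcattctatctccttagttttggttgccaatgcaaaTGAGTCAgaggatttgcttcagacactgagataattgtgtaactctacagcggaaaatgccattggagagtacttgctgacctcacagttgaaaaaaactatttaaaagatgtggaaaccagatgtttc
AP-1 letters occur in 6.6% of all 34943 promoter windows of this length, the full element in 1.6%, its core in 21.2%, NF-kB in 5.7%, the GC box in 42.5% and the TATA box in 10.8%. The VCAN window held 1 core element, 40 bases before the start, and 1 GC box. The CD44 window held 2 GC boxes and the HAS3 window 1. The VCAN, CD44 and HAS3 windows precede RefSeq's starts but lie downstream of the GENCODE gene starts given in this report. A match describes letters only, and the absence of one says only that these letters are not in the window.

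Library totals ranged from 50.3 (SC79) to 58.8 (control) in units of 1e+06 estimated counts, and the 10 most abundant genes held 6.66% (PMA) to 8.77% (SC79) of the counts. Values below are estimated counts scaled to a common library size, or TPM, counts per transcript length as a part of the library's total, where genes are compared with each other. Every interval is an exact 95% interval that covers counting error only. A gene was compared when one of the 2 libraries reached 100 scaled counts, and it was called past 2-fold when the log2 ratio, with a pseudocount of 1 scaled count, was at least 1 in size. Of 9 listed granulosa markers 8 reached that minimum in some library, among them FOXL2, a granulosa transcription factor, at 85.3 to 153 TPM, whereas WT1 stayed under 0.1 TPM in all 5. Of 6 listed immune markers 3 stayed under 0.1 TPM in every library, CD3E and MPO among them, and the others were detected. CD68, the only 1 of the 6 to reach the count minimum, had 21.6 TPM in control and 67.5 TPM with PMA.

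The 10 genes spanned a wide range of levels per length. In the control library VCAN had 766 TPM and CD44 775 TPM, followed by ADAMTS1 at 31.9 TPM and PTX3 at 15.4 TPM. HAS2 had 3.95 TPM, HAS3 3 TPM, ADAMTS5 2.84 TPM, ADAMTS9 1.19 TPM, TNFAIP6 0.755 TPM and ADAMTS4 0.13 TPM. The summed level of the 10 genes was 1602 TPM with FSH, 1741 with FSK, 1577 with SC79 and 1904 with PMA, against 1600 TPM in control, and VCAN and CD44 together made up 95.5% to 96.7% of it. As the plot of level per length shows, the proteoglycan and the receptor were abundant in every library, while both synthases and the cross-linking protein TNFAIP6 were scarce.

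**Figure D1:**
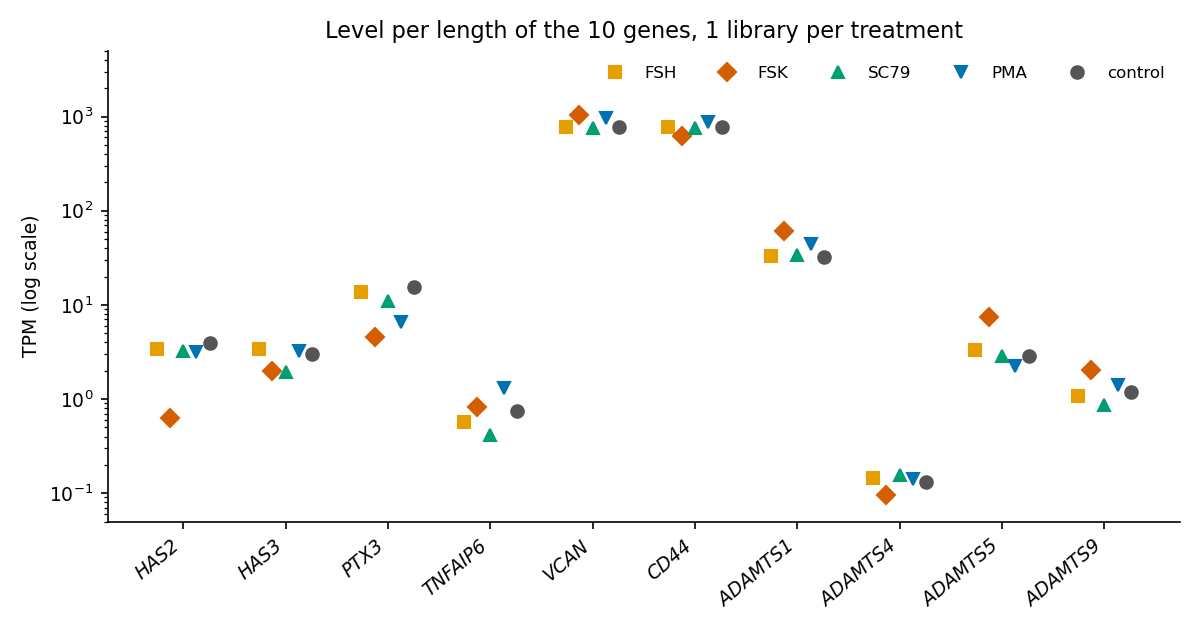
Level of each of the 10 genes in TPM (log axis) in the 5 libraries, 1 point per library. CD44 lies at 623 TPM or above in every library, VCAN at 761 TPM or above, and ADAMTS4 lies at 0.0963 to 0.156 TPM.

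Of the 4 agents, FSK put the largest number of the matrix genes past 2-fold of control, and with PMA only PTX3 passed. With FSK, 3 of the 8 genes with enough counts passed 2-fold: HAS2 and PTX3 were lower and ADAMTS5 was higher. Over all 12606 genes compared for FSK, 9.55% passed. With PMA, 1 of 8 passed, where 7.26% of all genes compared passed. With FSH 0 of 8 passed, where 0.409% of all genes compared passed, and with SC79 0 of 8, where 0.264% passed. TNFAIP6 and ADAMTS4 never reached 100 scaled counts, so 8 of the 10 genes were compared. The 10 genes were chosen with earlier results of these data known, so their shares beside those of all genes are not a test. The control library is shared by all 4 comparisons, so the ratios of one gene across treatments are not independent of each other.

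**Figure D2:**
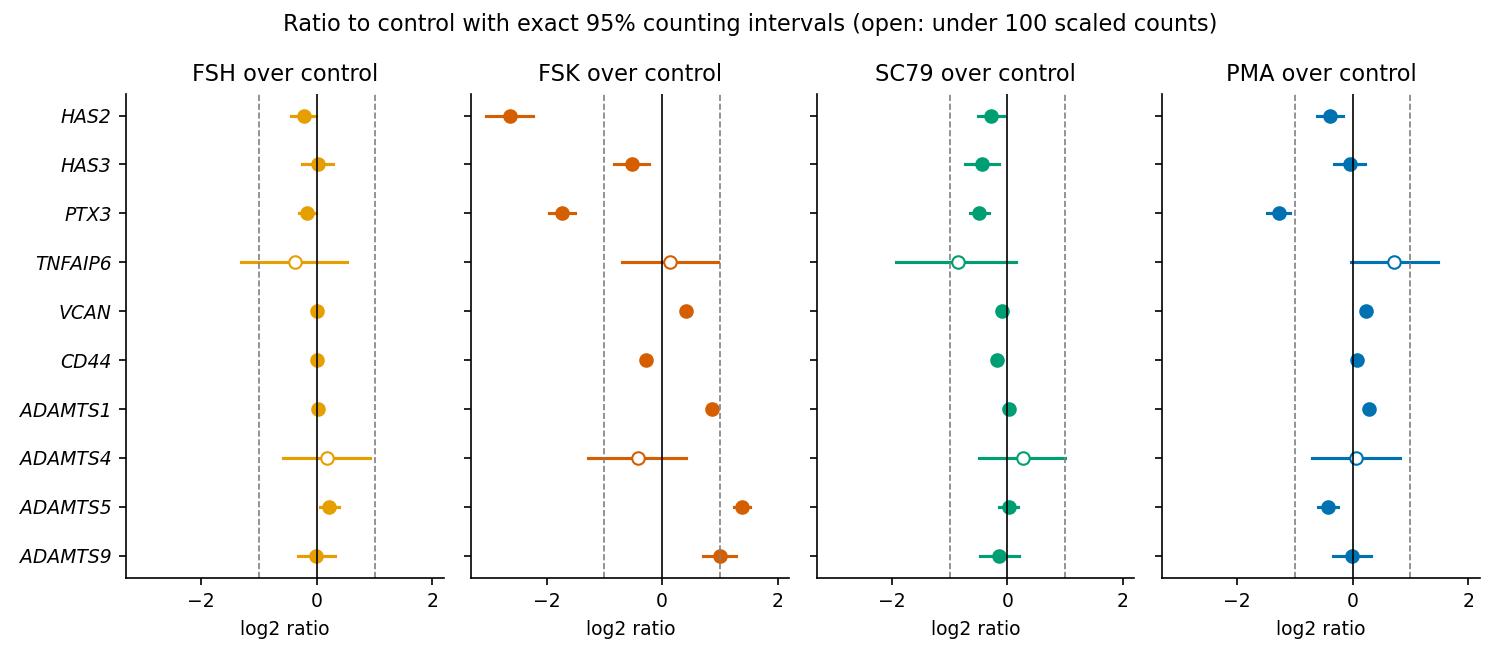
Log2 ratio of each gene's scaled counts to control (no pseudocount), 1 panel per treatment, with exact 95% counting intervals and dashed lines at 2-fold; open points had under 100 scaled counts in both libraries. In the FSK panel HAS2 and PTX3 lie left of the dashed line and ADAMTS5 right of it, and in the PMA panel PTX3 alone passes it.

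HAS2 (chr8:121612116-121641390, minus strand), the synthase that makes most hyaluronan in the expanding cumulus, was far lower in the FSK library than in any other. It had 325.4 scaled counts with FSH, 61.72 with FSK, 313.6 with SC79 and 290.6 with PMA, against 381.5 in control. The FSK library lay below the lower counting limit of each of the other libraries, while FSH, SC79 and PMA could not be ordered among themselves within counting error. With FSK the level was 0.162 times control (0.121 to 0.213), or 6.18-fold lower. With PMA it was 0.762 times control (0.654 to 0.887), with SC79 0.822 times (0.705 to 0.955) and with FSH 0.853 times (0.736 to 0.989). Set directly against each other, PMA was 4.71-fold (3.55 to 6.35) above FSK.

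HAS3 (chr16:69105564-69118719, plus strand), a synthase that makes shorter hyaluronan chains, stayed within 2-fold of control. It had 228.1 scaled counts with FSH, 158.1 with FSK, 167.2 with SC79 and 218.4 with PMA, against 226.4 in control. FSK and SC79 formed a lower pair and FSH, PMA and control a higher group, and within each of these sets neighbours were not separated by counting error. The ratio to control was 0.698 (0.565 to 0.856) with FSK and 0.738 (0.601 to 0.905) with SC79. The third synthase, HAS1, reached 6.27 scaled counts at most, too few to compare.

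PTX3 (chr3:157436789-157443628, plus strand), the pentraxin that cross-links the hyaluronan matrix, was the one gene of the set past 2-fold with both FSK and PMA. It had 615.9 scaled counts with FSH, 206.8 with FSK, 491.9 with SC79 and 282.7 with PMA, against 688.6 in control. All 4 treated libraries lay below control, in the order FSH, SC79, PMA and FSK from high to low, and every step of that order exceeded counting error, the first only just. The level was 0.3 times control with FSK (0.256 to 0.352) and 0.411 times control with PMA (0.357 to 0.471), that is 3.33-fold and 2.44-fold lower. With SC79 it was 0.714 times control (0.635 to 0.803) and with FSH 0.894 times (0.803 to 0.996). PTX3 shares exonic sequence on the opposite strand with VEPH1. The same holds for HAS2 with HAS2-AS1, HAS3 with CHTF8, VCAN with VCAN-AS1, CD44 with CD44-AS1 and ADAMTS9 with ADAMTS9-AS1, and since the counting is not stated to use strand, reads of either partner there cannot be told apart.

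TNFAIP6 (chr2:151357592-151380048, plus strand), the enzyme that moves heavy chains onto hyaluronan, was measured at few counts. It had 18.97 scaled counts with FSH, 27.16 with FSK, 13.75 with SC79 and 40.53 with PMA, against 24.76 in control. PMA was the highest library and SC79 the lowest, and the counting intervals of these 2 libraries did not overlap (29.08 to 54.98 with PMA, 7.32 to 23.52 with SC79), although no neighbouring pair in the order was separated. The ratio of PMA to control was 1.64 (0.983 to 2.77), so a difference from control was not detectable at this depth.

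VCAN, the hyaluronan-binding proteoglycan, was the most heavily counted gene of the set, and its ratios therefore have narrow counting intervals. It had 130324 scaled counts with FSH, 175049 with FSK, 122684 with SC79 and 152622 with PMA, against 130372 in control. The FSK library was the highest and PMA the next, whereas FSH and control could not be told apart. The ratio to control was 1.34 with FSK (1.33 to 1.35), 1.17 with PMA (1.16 to 1.18) and 0.941 with SC79 (0.934 to 0.948), none of them past 2-fold. The authors' normalized values, which differ from the counts by 1 constant per library, lower the PMA ratio of all genes alike: the log2 ratio of VCAN was -0.01 with them and 0.23 here, while the median of all genes was -0.245 with them and -0.007 here.

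Within VCAN the V1 form outnumbered V0 in every library, and the balance between them was furthest toward V1 with FSK. V1 (VCAN-203, 2409 amino acids) had 496 TPM with FSH, 692 with FSK, 463 with SC79 and 599 with PMA, against 487 TPM in control. V0 (VCAN-201, 3396 amino acids) had 59.5 TPM with FSH, 58.2 with FSK, 53.8 with SC79 and 77.2 with PMA, against 68.1 TPM in control. FSK was thus the highest library for V1 but not for V0. Of the counts assigned to the 2 forms, V0 took 13.8% with FSH (13.6 to 14), 10.1% with FSK (9.95 to 10.2), 13.4% with SC79 (13.2 to 13.6) and 14.7% with PMA (14.5 to 14.9), against 15.7% in control (15.5 to 15.9). The first long exon, which V0 keeps, spans 2961 bases and the second 5262 bases.

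These shares rest on kallisto's division of reads among overlapping transcripts, and the intervals do not cover its error. Only 1.4% of the 31-base words of VCAN-201 occur in no other transcript, and none of those of VCAN-203 do. The 2 forms together held 95.3% to 96.6% of all VCAN counts. Of the rest, VCAN-206, an annotated retained-intron transcript with 22.3% of its words its own, had 187 TPM with FSH, 247 with FSK, 203 with SC79 and 251 with PMA, against 182 TPM in control. VCAN-208, which keeps the first long exon and lacks the second and thus resembles V2, was listed at 0 in control and at 68.74 scaled counts with FSH, 307.3 with FSK, 341.0 with SC79 and 752.2 with PMA. Against the 3 counts that an observed 0 allows, PMA was at least 273-fold higher, but VCAN-208 also has no word of its own, and it made up at most 0.493% of VCAN counts. VCAN-209, a processed transcript with 16.4% of its words its own, had 621.6 scaled counts with FSH, 787.4 with FSK, 659.5 with SC79 and 1524 with PMA, against 657.3 in control, and its log2 ratio with PMA was 1.21. PMA was the highest library for this transcript, and FSK also lay above control, with a fold of 1.08 to 1.33. VCAN-204, the V3 form of 655 amino acids without either long exon, had 52.42 scaled counts with FSH, 102.3 with FSK, 25.72 with SC79 and 45.71 with PMA, against 6.14 in control.

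CD44, the hyaluronan receptor, differed little between libraries. It had 52273 scaled counts with FSH, 43084 with FSK, 46052 with SC79 and 54770 with PMA, against 52357 in control. FSK was the lowest library and PMA the highest, and FSH and control could not be told apart. The ratio to control was 0.823 with FSK (0.813 to 0.833), 0.88 with SC79 (0.869 to 0.891) and 1.05 with PMA (1.03 to 1.06). With PMA its log2 ratio was 0.06, and -0.17 with the authors' normalized values, by the same shift of all genes given for VCAN.

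The standard form dominated CD44 counts in all 5 libraries. CD44-201, of 361 amino acids, held 83.9% of CD44 counts with FSH, 86.2% with FSK, 81.2% with SC79 and 82.7% with PMA, against 86.3% in control. Grouped by structure, the 3 transcripts with the skipping junction shown above held 90% of the counts with FSH, 89.4% with FSK, 86% with SC79 and 88.1% with PMA, against 89.4% in control. The 27 transcripts with an exon of the variable region held 4.89% with FSH, 5.54% with FSK, 6.92% with SC79 and 6.08% with PMA, against 5.72% in control. The remaining 9 transcripts have neither feature and held 4.83% to 7.05%. Counts favour long transcripts, and as shares of CD44 TPM the classes were less unequal. The skipping junction then held 53.1% (SC79) to 63.8% (FSH), against 60.4% in control. Transcripts with a variable-region exon held 16.4% (FSH) to 22.3% (SC79), against 20.1% in control. Those with neither feature held 19.6% (control) to 24.6% (SC79). Among minor transcripts, CD44-207 (annotated for nonsense-mediated decay, 1.6% of its words its own) had 3133 scaled counts with FSH, 1355 with FSK, 2167 with SC79 and 2937 with PMA, against 1606 in control. CD44-205 had 471.5 scaled counts with FSH, 0.00 with FSK, 381.3 with SC79 and 644.9 with PMA, against 72.76 in control. The FSK library was thus the lowest for both. Only 2.8% of the words of CD44-205 are its own and none of those of CD44-201 are.

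**Figure D3:**
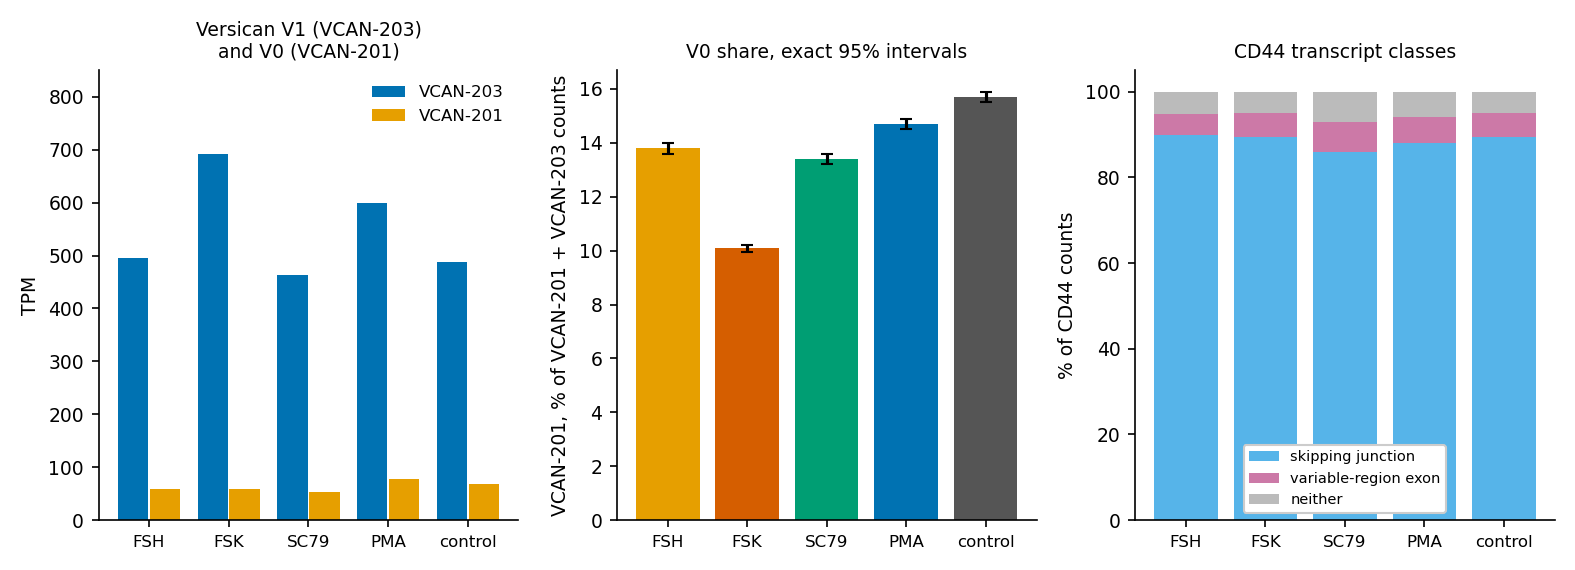
Left, TPM of versican V1 (VCAN-203) and V0 (VCAN-201) by library; middle, V0 as a percentage of the counts of both forms with exact 95% intervals; right, percentage of CD44 counts in transcripts with the skipping junction, with a variable-region exon or with neither. The V0 share is lowest with FSK at 10.1%, against 15.7% in control, and the skipping junction holds 86% to 90% of CD44 counts.

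ADAMTS1 (chr21:26835747-26845409, minus strand), a protease that cleaves versican and is induced by progesterone receptor in mouse granulosa cells, was the most abundant protease of the set. It had 3430 scaled counts with FSH, 6107 with FSK, 3462 with SC79 and 4092 with PMA, against 3378 in control. FSK was the highest and PMA the next, and FSH, SC79 and control could not be ordered. The ratio to control was 1.81 with FSK (1.73 to 1.88), short of 2-fold, and 1.21 with PMA (1.16 to 1.27).

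ADAMTS5 (chr21:26917912-26966513, minus strand), a further versican- and aggrecan-cleaving protease, was the one gene of the set past 2-fold upward with FSK. It had 688.8 scaled counts with FSH, 1544 with FSK, 603.0 with SC79 and 440.9 with PMA, against 592.4 in control. FSK lay far above all others and PMA below all others, with control and SC79 indistinguishable between them. The ratio to control was 2.61 with FSK (2.37 to 2.86), 1.16 with FSH (1.04 to 1.3) and 0.744 with PMA (0.658 to 0.841). PMA was 0.286 times FSK (0.256 to 0.318), or 3.5-fold lower.

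ADAMTS9 (chr3:64515654-64688000, minus strand), which also cleaves versican, lay just short of the 2-fold line with FSK. It had 150.7 scaled counts with FSH, 301.9 with FSK, 137.5 with SC79 and 150.2 with PMA, against 151.3 in control. FSK stood alone and the other 4 libraries could not be told apart. The log2 ratio of FSK to control was 0.992, just under the limit of 1, with a fold of 1.64 to 2.43, and that of PMA to FSK was -1.002, just past it. Its transcripts were divided unequally: ADAMTS9-210, which encodes 1935 amino acids, had 94.64 scaled counts with FSH, 244.8 with FSK, 68.41 with SC79 and 34.05 with PMA, against 91.87 in control. ADAMTS9-201, named after its values were seen, had 36.33 with FSH, 31.77 with FSK, 66.21 with SC79 and 94.13 with PMA, against 35.91 in control. PMA was the lowest library for the one and the highest for the other, although 0.2% of the words of ADAMTS9-210 are its own.

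ADAMTS4 (chr1:161184308-161199056, minus strand), an aggrecanase that also cuts versican, was barely detected. It had 32.97 scaled counts with FSH, 21.81 with FSK, 35.38 with SC79 and 30.34 with PMA, against 29.28 in control, and no neighbouring pair was separated by counting error.

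**Figure D4:**
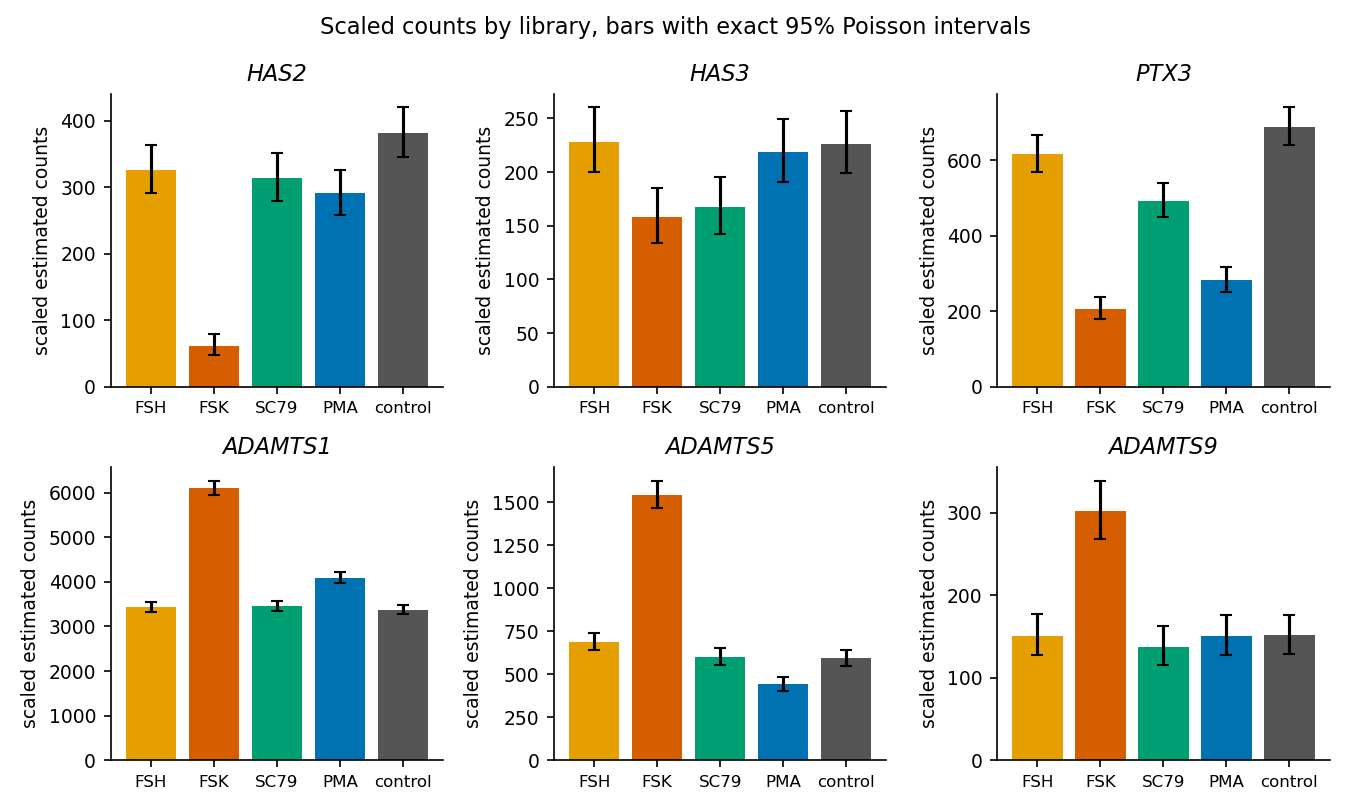
Scaled estimated counts of HAS2, HAS3, PTX3, ADAMTS1, ADAMTS5 and ADAMTS9 in the 5 libraries, each bar with its exact 95% Poisson interval; axes start at 0 and differ between panels. FSK is the lowest bar for HAS2 (61.72) and PTX3 (206.8) and the highest for ADAMTS1 (6107), ADAMTS5 (1544) and ADAMTS9 (301.9).

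The direct comparison of PMA with FSK, which does not use the control, gave HAS2 a higher level and all 3 measurable proteases a lower level with PMA. Of the 8 genes compared, 3 passed 2-fold, HAS2 higher with PMA and ADAMTS5 and ADAMTS9 lower, where 10.9% of all genes compared passed. The call for ADAMTS9 is marginal and held in 4 of 9 processing settings. CD44 was 1.27 times as high with PMA as with FSK (1.26 to 1.29), HAS3 1.38 times (1.12 to 1.71) and PTX3 1.37 times (1.14 to 1.65), while VCAN was 0.872 times (0.866 to 0.878) and ADAMTS1 0.67 times as high (0.644 to 0.697).

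With FSH all 8 compared genes lay within 1.2-fold of control, as did 93.7% of all genes. With SC79 5 of 8 did, against 90.7% of all genes. With FSK 0 of 8 did, against 52.5% of all genes, and with PMA 4 of 8, against 55.2%. The median log2 ratio of the 8 genes was -0.16 with SC79, where that of all genes compared was -0.01. It was 0.07 with FSK, where that of all genes was 0.01, and -0.03 with PMA, where that of all genes was -0.01.

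Each gene past 2-fold was matched with the 3 genes closest to it over the 4 log2 ratios to control, among 12615 genes, by the root mean square difference. HAS2 was closest to SYNE3 (difference 0.046), CDT1 (0.065) and E2F2 (0.119). PTX3 was closest to EFNB2 (0.100), DEPDC1 (0.101) and ANKRD33B (0.144). ADAMTS5 was closest to GPR85 (0.052), ITPR1 (0.065) and GPC6 (0.085), and ADAMTS9 to DNAJC10 (0.049), FBXO25 (0.062) and LEPROTL1 (0.064). For the first match of HAS2, SYNE3 had 354.8 scaled counts with FSH, 62.54 with FSK, 344.1 with SC79 and 305.9 with PMA, against 406.7 in control.

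Genes that work with these 10 were taken from lists of 120 further genes, of which 119 were in the table. The lists were chosen with earlier results of these data known. Their shares past 2-fold therefore do not test whether such genes differ more often than others. With FSK, 84 could be compared, 10 passed 2-fold upward and 6 downward, which is 19% against the 9.55% of all genes. With PMA, 84 were compared and 14 passed upward and 7 downward, which is 25% against 7.26%. With FSH and with SC79, 80 were compared and 0 passed, where 0.409% (FSH) and 0.264% (SC79) of all genes passed.

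In hyaluronan synthesis and precursor supply, 0 of 7 compared genes passed with FSK (9.55% of all genes), and 1 of 7 with PMA (7.26%). This was GFPT2, which feeds the pathway that makes the amino sugar precursor, with 1507 scaled counts with FSK and 3929 with PMA, against 1614 in control. Its ratio to control was 2.43 with PMA (2.3 to 2.58). GFPT1, the most heavily counted of the list, had 11545 scaled counts with FSK and 7794 with PMA, against 7160 in control.

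In hyaluronan breakdown and clearance, 0 of 7 genes passed against control with either agent, beside 9.55% of all genes with FSK and 7.26% with PMA. Yet the abundant CEMIP lay close to the line on opposite sides. CEMIP, a hyaluronan-binding protein needed for depolymerisation of the polymer in skin fibroblasts, had 652 TPM with FSH, 326 with FSK, 510 with SC79 and 1336 with PMA, against 657 TPM in control. Per length it was therefore far above either synthase in every library. Its log2 ratio of scaled counts was -0.93 with FSK and 0.94 with PMA, and PMA was 3.65-fold (3.62 to 3.69) above FSK.

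Of the hyaluronan-binding proteins, 2 of 4 passed with FSK (9.55% of all genes) and 1 of 3 with PMA (7.26%). HMMR, a hyaluronan-binding protein that also sits on the mitotic spindle of dividing cells, had 559.9 scaled counts with FSK and 923.2 with PMA, against 2148 in control. It was 3.84-fold lower with FSK and 2.33-fold lower with PMA. ITIH4, of the inter-alpha-trypsin inhibitor heavy chain family, was counted at 151.1 with FSK, against 48.31 in control (scaled), a ratio of 3.13 (2.26 to 4.35).

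Among the other ADAMTS proteases, 1 of 10 was higher and 1 lower with FSK, and 2 were higher and 1 lower with PMA. Of all genes compared, 9.55% passed in either direction with FSK and 7.26% with PMA. ADAMTS15, which like ADAMTS5 can cleave versican, had 1571 scaled counts with FSH, 4816 with FSK, 1603 with SC79 and 781.9 with PMA, against 1420 in control. As for ADAMTS5, FSK was the highest library and PMA the lowest, and FSK was 3.39 times control (3.2 to 3.59). ADAMTS7, the most heavily counted of this list, was 2.2-fold lower with FSK, at 2800 scaled counts, against 6166 in control. With PMA, ADAMTS14 was 4.45-fold (3.68 to 5.41) and ADAMTS6 2.65-fold (2.46 to 2.87) higher, and ADAMTS16 was 6.71-fold lower, at 112.7 scaled counts, against 756.5 in control.

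Among regulators of these proteases, 2 of 7 passed upward with FSK, and 2 of 8 upward and 1 downward with PMA. The shares of all genes past 2-fold in either direction were 9.55% with FSK and 7.26% with PMA. With FSK they were ADAMTSL4, a fibrillin-associated ADAMTS-like protein, at 2.49 times control (2.15 to 2.9), and PCSK5, a proprotein convertase, at 2.29 times control (1.98 to 2.65). With PMA they were PAPLN (3.03 times control, 2.36 to 3.95) and ADAMTSL4 (2.43 times control, 2.1 to 2.83). TIMP3, the tissue inhibitor that blocks ADAMTS4 and ADAMTS5, was counted at 1202 with PMA, against 3049 in control (scaled), or 2.54-fold lower. FURIN, the convertase that removes the propeptide of many ADAMTS proteases, had 13607 scaled counts with FSK and 12322 with PMA, against 7123 in control, within 2-fold.

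Among proteins that bind versican, 1 of 7 was lower with FSK and 2 of 7 were lower with PMA. Over all genes, 9.55% passed in either direction with FSK and 7.26% with PMA. TNC (tenascin-C) was counted at 7799 with FSK, against 22523 in control (scaled), 2.89-fold lower. With PMA, FBLN2 (fibulin-2) had 23871 scaled counts, against 60413 in control, 1 of the 2 that passed. FN1 (fibronectin), the most heavily counted of the list, had 560765 scaled counts with FSK and 1046771 with PMA, against 1004350 in control.

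Among enzymes that build the chondroitin sulphate chains of versican, 1 of 19 was higher and 1 lower with FSK, and likewise with PMA. Of all genes compared, 9.55% passed in either direction with FSK and 7.26% with PMA. The median log2 ratio of the 19 genes was 0.36 with FSK and 0.07 with PMA, beside medians of 0.01 and -0.01 over all genes. CSGALNACT1, which adds the first N-acetylgalactosamine of the chain, had 408.3 scaled counts with FSH, 5096 with FSK, 274.6 with SC79 and 710.6 with PMA, against 301.8 in control. It was 16.9-fold higher with FSK (15.1 to 18.9) and 2.35-fold higher with PMA (2.06 to 2.69). CHST15, a sulphotransferase, was 2.76-fold lower with FSK, at 322.8 scaled counts, against 889.4 in control. CHPF, the chondroitin polymerising factor, was counted at 11486 with PMA, against 26341 in control (scaled), or 2.29-fold lower.

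Of the proteins that anchor CD44 to the cytoskeleton, shed it or splice it, 0 of 7 passed with FSK, beside 9.55% of all genes. With PMA 2 of 8 passed, both upward, beside 7.26% of all genes in either direction. MMP9, a metalloprotease that docks on CD44, had 4.99 scaled counts with FSH, 13.58 with FSK, 10.58 with SC79 and 5117 with PMA, against 3.67 in control. The ratio with PMA was 1395, with a counting interval of 545 to 5123. MMP14, a membrane protease that sheds CD44, was counted at 58784 with PMA, against 15536 in control (scaled), 3.78 times as high (3.72 to 3.85). MSN (moesin), a linker to actin, had 36599 scaled counts with FSK and 71208 with PMA, against 48752 in control.

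Among ovulatory signals, 5 of 16 passed upward and 2 downward with FSK, and 6 of 15 upward and 1 downward with PMA. The share of all genes past 2-fold in either direction was 9.55% with FSK and 7.26% with PMA. PTGS2, the inducible cyclooxygenase, had 2285 scaled counts with FSK and 4118 with PMA, against 539.2 in control. AREG (amphiregulin), an EGF-like factor that relays the luteinizing hormone signal to the cumulus, had 412.6 with FSK and 415.2 with PMA, against 68.77 in control. PTGES, a prostaglandin E synthase, had 396.2 with FSK and 21.05 with PMA, against 7.49 in control, a ratio of 52.9 with FSK (27.1 to 126). PTGER4, a receptor for prostaglandin E2, was 3.3-fold lower with FSK and 2.4-fold lower with PMA. PLAU (urokinase) had 4027 scaled counts with FSK and 16833 with PMA, against 12743 in control, so only FSK passed, 3.16-fold lower. Of the most heavily counted genes of this list, RUNX1, a transcription factor, had 15961 scaled counts with FSK and 12199 with PMA, against 11477 in control, and EGFR, the receptor of the EGF-like factors, had 11666 with FSK and 22103 with PMA, against 13407 in control, all within 2-fold.

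In the direct comparison of PMA with FSK, 12 of 85 related genes passed upward and 9 downward. This is 24.7% against the 10.9% of all genes, again for lists chosen with earlier results known. MMP9 was 377-fold higher with PMA (220 to 708), and PLAU 4.18-fold (4.04 to 4.33). HAPLN3, a link protein that ties proteoglycans to hyaluronan, was 2.83-fold higher (2.18 to 3.7), and ADAMTS14 3.36-fold (2.81 to 4.03). ADAMTS15 was lower with PMA by a log2 ratio of -2.62, CSGALNACT1 by -2.84 and PTGES by -4.17, each of which had passed upward with FSK against control.

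**Figure D5:**
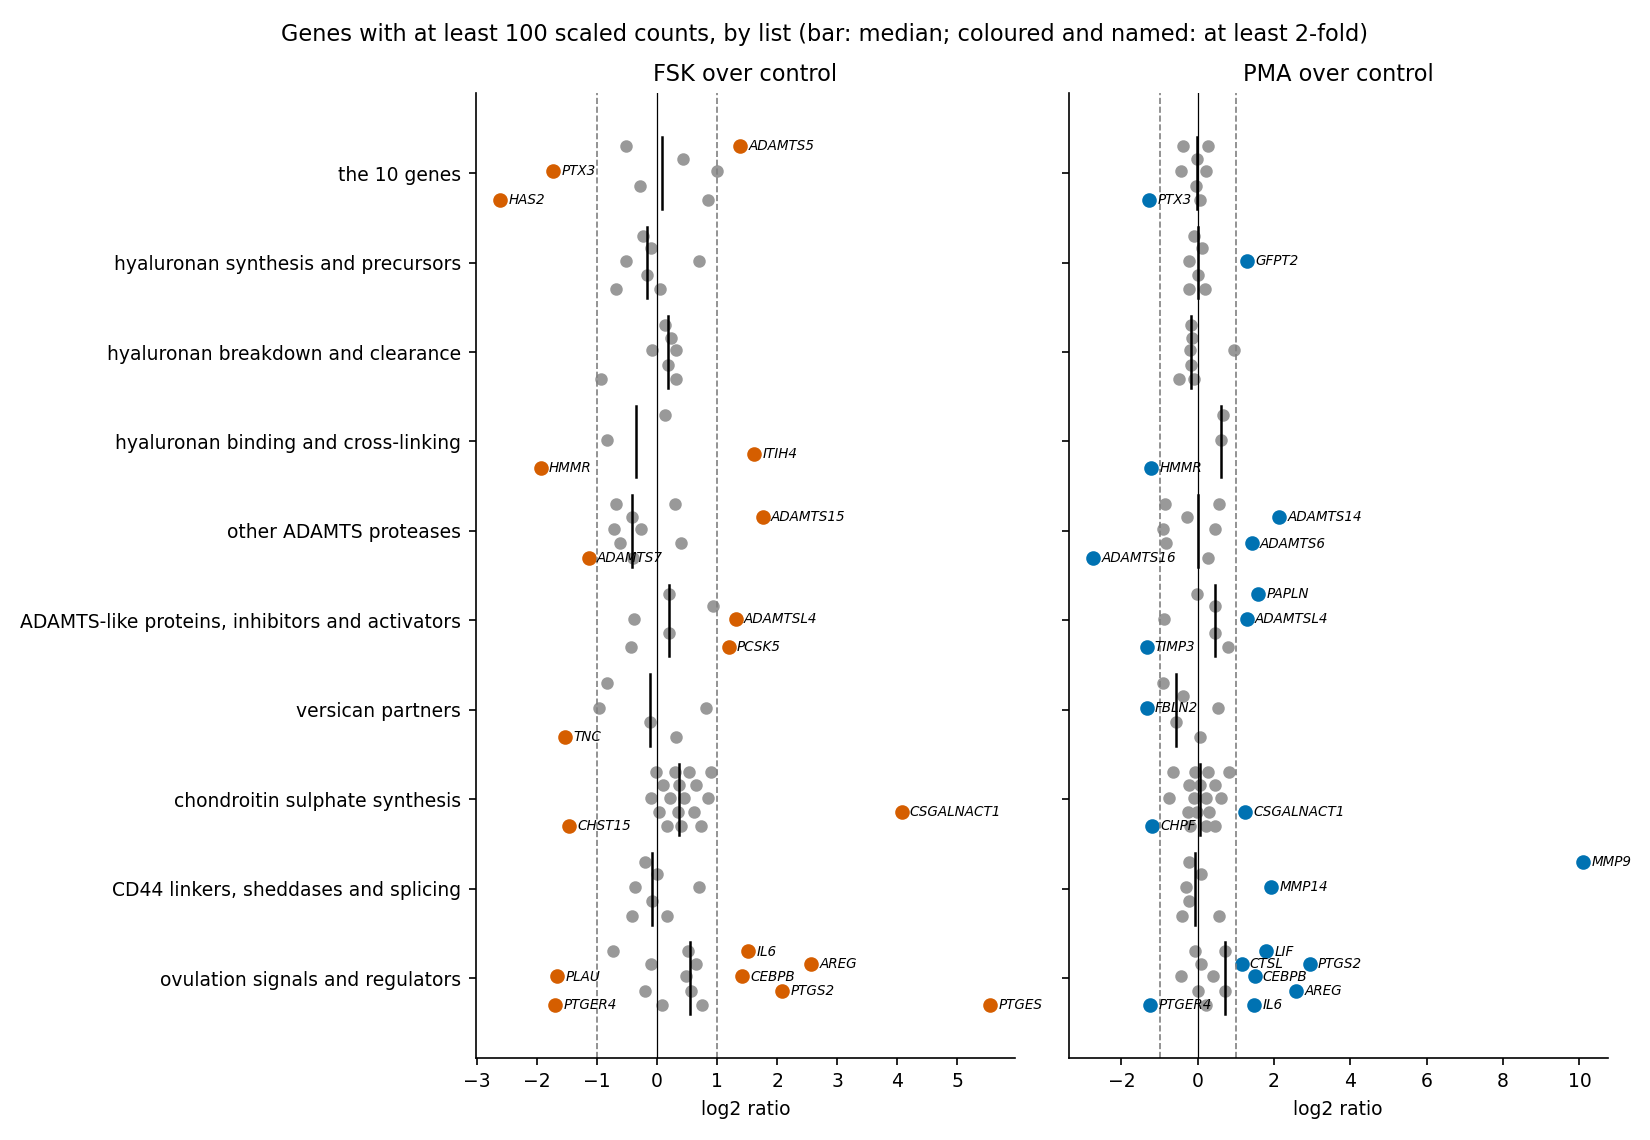
Log2 ratio to control, by list, of the genes that reached 100 scaled counts in one of the 2 libraries, for FSK and PMA (1 versican partner is not drawn); black bars are list medians, dashed lines mark 2-fold and coloured, named points lie past it. PTGES (5.55) and CSGALNACT1 (4.07) lie furthest right for FSK and MMP9 (10.1) for PMA, with HAS2 (-2.61) furthest left for FSK.

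Markers of other cell types also differed between these libraries. The summed level of the theca and stroma markers was 5777 TPM with FSH, 3921 with FSK, 6253 with SC79 and 2505 with PMA, against 6379 TPM in control, and most of this is COL1A1 and ACTA2, which many mesenchymal lines express. The immune list summed to 23.3 TPM with FSH, 23.8 with FSK, 31.6 with SC79 and 68.5 with PMA, against 22.5 TPM in control, with 1 of its 6 genes reaching the count minimum (CD68). The endothelial list summed to 2.69 TPM (SC79) to 8.78 TPM (PMA), against 2.88 TPM in control, and the epithelial list to 891 TPM (FSK) to 1523 TPM (FSH), against 1480 TPM in control. Of 7 oocyte markers none reached the count minimum and 5 stayed under 0.1 TPM in every library. The granulosa list summed to 438 TPM with FSH, 1012 with FSK, 451 with SC79 and 361 with PMA, against 431 TPM in control. Much of the FSK sum is CYP19A1, at 465 TPM, against 16 TPM in control. FOXL2 had 148 TPM in both of these libraries, and GATA4 had 238 TPM with FSK, against 161 TPM in control. The part of these marker lists in the ratios of the matrix genes was not tested.

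The authors' deposited table gives a log2 fold change and a p-value for each transcript, whose dispersion is not given in the sources used here although each group has 1 library. In the authors' deposited table HAS2-201 stood at -2.63 with FSK with an adjusted p of 0.325, and PTX3-201 at -1.74 with an adjusted p of 0.852. Of 26 transcripts of the 10 genes that reached the count minimum, 1 had an adjusted p under 0.05 with FSH, 2 with FSK, 1 with SC79 and 1 with PMA in the authors' deposited table. Over the 33273 transcripts at that minimum, the shares under 0.05 in the authors' deposited table were 1.98% with FSH, 2.6% with FSK, 1.98% with SC79 and 2.35% with PMA. The transcripts concerned were VCAN-208 with every agent and CD44-205 with FSK (log2 -9.25, adjusted p 0.00237 in the authors' deposited table), both of which rest on the division of reads among overlapping transcripts described above.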

How the data were processed

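Poly(A) RNA of KGN cells was sequenced as 5 paired-end libraries, 1 per group, each pooled from 3 cultures. Per the submitters' processing notes Trimmomatic, kallisto and edgeR were used; the versions, transcript index and genome build were not given in the sources used here. The authors deposited estimated counts per transcript, a normalized signal that equals those counts times 1 constant per library (0.934 to 1.03), and a comparison table with log2 fold changes and p-values; its LH comparison has no library here. All value columns were matched to groups, with 0 unmatched.

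Estimated counts were summed per gene name, because the tables are per transcript although counts per gene had been planned. TMM factors (0.976 to 1.03) came from edgeR 4.0.16 in R 4.3.3 on sums rounded to whole numbers, and counts were scaled to the geometric mean of the effective sizes. Rows without a gene name held 0.0535% to 0.068% of counts. Ratios have exact conditional binomial (Clopper-Pearson) 95% intervals from rounded counts; without molecular identifiers these cover counting error only. Ratios called past 2-fold used a pseudocount of 1 and a minimum of 100 scaled counts. TPM used GENCODE 29 transcript lengths, which matched 90.9% of transcript identifiers and 97.6% of counts in every library; other values come from all rows. Because the authors' index is not given, coordinates and junctions are those of GENCODE 29 and promoters those of RefSeq. A word is a 31-base stretch of transcript sequence.

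The members and gene lists were chosen with earlier results of these data known. All 10 genes were named. In each list up to 2 genes per direction past 2-fold were named against control, with the most heavily counted gene; for PMA against FSK, and for transcripts that reached 100 scaled counts, only some of those the rule allows are given. A few genes of the lists enter counts and summed levels but are not reported by name here. The ratios and intervals were tested on simulated Poisson counts with known ratios. Those counts hold no variation between cultures and no error of dividing reads among transcripts. Alternatives were other scalings (library totals, DESeq2 1.42.0 size factors, upper quartile, the authors' normalized values), pseudocounts of 0.5 and 5, count minimums of 20 and none, a 1.5-fold limit, protein-coding transcripts only, and counts per transcript length. Python 3.11.15, numpy 2.4.6, pandas 2.3.3, scipy 1.17.1 and matplotlib 3.10.9 were used.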

Additional observations from a re-analysis of the deposited data

Results flagged for a closer look

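The authors' deposited table also compares luteinizing hormone (LH) with control, a treatment whose library was not analysed here, so these values have no counts beside them. Of the 10 genes, 8 have a transcript that reached the count minimum, and TNFAIP6 and ADAMTS4 have none. In the authors' deposited table the most abundant transcript of 3 of these 8 genes lay at least 2-fold above control. This signal in data outside the main comparisons is why the 3 are given. ADAMTS1-201 had a log2 fold change of 1.98 with LH in the authors' deposited table, with an adjusted p of 0.616. PTX3-201 had 1.88 with LH in the authors' deposited table, with an adjusted p of 0.678, whereas it was lower than control with FSK and PMA. ADAMTS9-210 had 1.53 with LH in the authors' deposited table, with an adjusted p of 0.929. Over all 33273 transcripts at the count minimum, 7.93% lay at or above 1 with LH in the authors' deposited table and 10.3% at or below -1. The limit of 1 was set after the LH values were seen. None of the 3 had an adjusted p under 0.05, and HAS2-201 stood at 0.17.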

How the results depend on the processing

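Across 9 ways of computing each ratio, HAS2 with FSK ranged from -2.78 to -2.53 in log2, PTX3 with FSK from -1.90 to -1.71, ADAMTS5 with FSK from 1.21 to 1.38 and PTX3 with PMA from -1.52 to -1.22, all past 2-fold in 9 of 9. No called ratio changed sign. ADAMTS9 for PMA against FSK ranged from -1.14 to -0.62 and passed in 4 of 9. The authors' normalized values moved the median of all genes to -0.163 with FSH, -0.163 with FSK, -0.281 with SC79 and -0.245 with PMA. At a 1.5-fold limit 5 of the 8 genes compared passed with FSK instead of 3, where 19.9% of all genes did. The related genes past that limit numbered 36 of 84 with FSK (16 at 2-fold), 36 of 84 with PMA (21 at 2-fold; 17.4% of all genes) and 1 of 80 with FSH (0 at 2-fold; 1.03% of all genes). With no count minimum, 26 of 119 related genes passed with FSK (13.4% of all genes), 34 with PMA (10.9%), 7 with FSH (6.56%) and 11 with SC79 (8.9%; 0 related genes with the minimum); with a minimum of 20, 1 of 90 passed with FSH (1.44%). More genes are eligible by construction under these limits. No paired analysis was possible because each group has 1 library and the labels carry no replicate numbers. Depth limits TNFAIP6 and ADAMTS4, which stayed under 100 scaled counts in every library. Leaving out a replicate was not possible with 1 library per group.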
